A study of Mus musculus with 12 samples.

Results

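Naive CD4+ T cells can be purified by fluorescence-activated cell sorting (FACS), in which each cell is gated and deflected on its own, or by magnetic cell sorting (MACS), in which bead-labeled cells are held on a column or removed in bulk. The comparison described here was between these methods. It set the 2 arrays of FACS-purified naive cells (naive FACS) against the 2 arrays of MACS-purified naive cells (naive MACS), 4 of the 12 arrays of the series, across all genes. Both groups held naive CD4+CD62L+ T cells of Foxp3GFP mice, a strain that carries a GFP reporter of *Foxp3*, with no culture. The other 8 arrays held GFP+ Treg cells that had been cultured from such naive cells with high TGFb (TGFhi, 2 arrays from FACS and 2 from MACS precursors) or with low TGFb and harmine (Harmine, likewise 2 and 2) and then sorted by FACS. They served as the level of a transcript in cultured, sorted T cells. Per the study's methods naive cells were obtained with a kit that removes other cells than CD4+ cells, followed by CD62L microbeads. The methods state that the purity of such cells was high by flow cytometry, without a value for these 4 arrays. The sources used here do not give the gates of the FACS arm, the organ or the age of the mice. The labels also do not say whether arrays came from separate mice, so the p-values below measure the spread between arrays, whatever its source. In the main fit that spread was taken over all 12 arrays, the Treg arrays included.

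A naive T cell is a resting lymphocyte that circulates through lymphoid organs and has not met its antigen. It carries the T cell receptor with its CD3 chains, the homing receptor CCR7 and the IL-7 receptor, and lacks most effector genes. Spleen and lymph nodes, from which such cells are commonly taken, also hold B cells, granulocytes, macrophages, dendritic cells, NK cells and erythroid cells, each with transcripts that T cells hardly make. In RNA from a bulk sample, more cells of a type and more RNA per cell of that type cannot be told apart, and this holds for every marker below.

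Levels are normalized log2 intensities, so that a difference of 1 is 2-fold, and differences are naive FACS minus naive MACS, with their standard error (SE). A background ceiling, below which a probe could not be told from the bulk of dim probes, lay between 6.22 and 6.23 on all arrays. An offset of 50 was added before the log was taken, which shrinks the fold changes of dim genes. Levels of different genes come from different probes and were not set against each other. Between 29.9% and 30.2% of the 45281 probes exceeded the ceiling on an array. Across probes the correlation was 0.990 between the naive FACS arrays and 0.980 between the naive MACS arrays. Between naive FACS and naive MACS arrays it lay between 0.969 and 0.985, with the lowest values for replicate 2 of naive MACS (0.969 and 0.975), and between naive and Treg arrays between 0.917 and 0.943.

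Replicate number went together with the sex-linked transcripts. *Xist*, which is transcribed from the inactive X chromosome of females, had levels of 8.19 and 5.76 in replicates 1 and 2 of naive FACS, against 8.47 and 5.84 in replicates 1 and 2 of naive MACS. The Y-linked *Eif2s3y* had 5.96 and 8.07 in naive FACS, against 6.07 and 8.08 in naive MACS. Replicate 1 of both purifications thus carried the female pattern and replicate 2 the male one, so the naive replicates of a purification came from mice of different sex. FACS and MACS could be compared within each number, but whether the arrays of 1 number shared mice is not stated. All 8 Treg arrays had *Xist* signal, with levels between 8.98 and 10.49, and 4 of them also had *Eif2s3y* above the background ceiling (6.38, 6.44, 6.97 and 6.99), a mixed pattern.

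Of 15663 genes tested, 212 (1.35%) were lower in naive FACS and 6 (0.0383%) were higher at an adjusted p under 0.05 in limma (218 in all, 1.39%), with Benjamini-Hochberg adjustment over all genes. Of the lower genes 125 differed by more than 2-fold and 38 by more than 4-fold, and of the higher genes 0 differed by more than 2-fold. The median difference of the lower genes was -1.10 and their range -3.28 to -0.39, while the median over all genes tested was 0.006, with 7553 of 15663 below 0. On an unadjusted basis 1540 genes (9.83%) had a p under 0.05. Both naive FACS arrays lay below both naive MACS arrays in 3019 genes (19.3%) and above both in 3043 (19.4%). Lack of overlap, given for some genes below, was therefore common over all genes. With arrays scaled to a common median the counts were 165 lower and 26 higher. Leaving out a naive array left 1 array in its group, whose spread was then taken from the other groups. The counts were 99 lower and 1 higher without replicate 1 of naive FACS, 103 and 0 without replicate 2 of naive FACS, and 424 and 143 without replicate 1 of naive MACS. In the fit on the 4 naive arrays alone they were 65 and 0. The main fit took the spread over all 6 groups. Treg arrays with little spread near background can thus lower a gene's SE and p-value. *Lyz1* had 9.83 and 10.97 in naive FACS, 12.28 and 13.44 in naive MACS and 5.9 to 6.2 in Treg cells. Its adjusted p was 0.0119 in the main limma fit and 0.239 in the limma fit on the naive arrays alone.

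**Figure D1:**
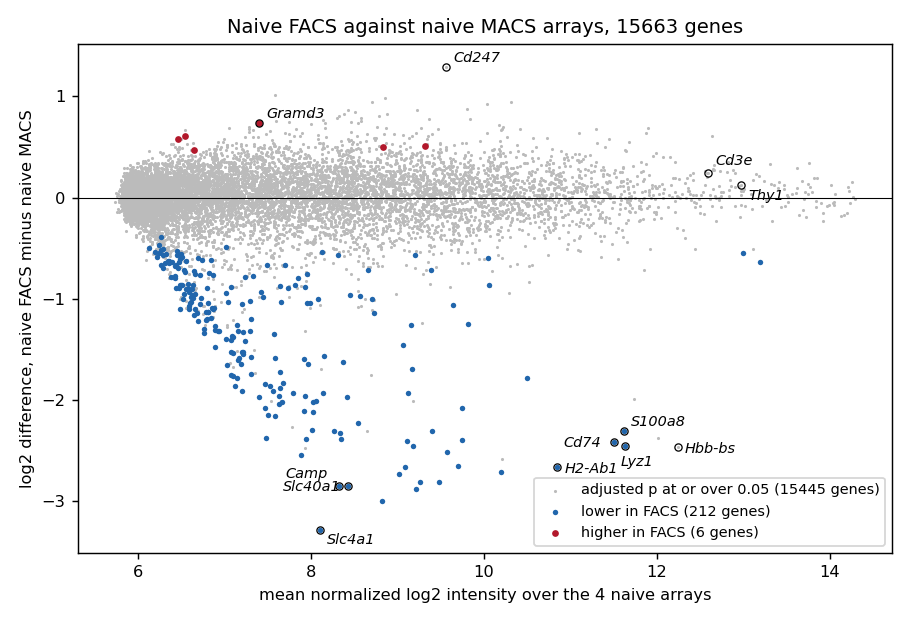
Each point is 1 of 15663 genes, with its mean normalized log2 intensity over the 4 naive arrays on the x axis and the log2 difference, naive FACS minus naive MACS, on the y axis. The 212 genes called lower in naive FACS (blue) reach down to -3.28 for *Slc4a1*, while the 6 called higher (red) stay under 1, and the T cell genes marked, none of them called, lie at 0.12 (*Thy1*), 0.25 (*Cd3e*) and 1.29 (*Cd247*).

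In 95 of the 212 genes all 8 Treg arrays lay under the background ceiling, and in 69 all 8 lay above it. Both naive FACS arrays were under the ceiling for 55 and above it for 127, so these transcripts were still above background after FACS. Set against the 8 Treg arrays, 65 of the 212 were higher in naive FACS, 39 were lower and 108 did not pass (over all genes 11.8% were higher and 11.7% lower, and 31.7% had an unadjusted p under 0.05), whereas in naive MACS 179 of the 212 were higher than in Treg cells (12.6% of all genes, with 33.8% at an unadjusted p under 0.05). Genes were kept for the test on their signal over all arrays, and the same arrays chose the 212, so these counts are a description. Of 101 called genes with more than 1 kept probe, all kept probes were lower in 73, and at least 2 probes passed on their own in 26. The probe that stood for each gene was lower by selection. No such share was worked out over all genes, so these counts are also a description.

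Of 20 T cell identity genes measured 0 were called lower and 0 higher. Their median difference was 0.24, and 4 of 20 were below 0. *Cd3e*, a CD3 chain of the T cell receptor complex, had 12.87 and 12.56 in naive FACS, against 12.64 and 12.29 in naive MACS (0.25 ± 0.19 SE, adjusted p = 0.773). *Thy1*, the pan-T cell surface protein, had 13.04 and 13.04 in naive FACS and 12.94 and 12.89 in naive MACS (0.12 ± 0.10). The groups overlapped in *Cd3e* and lay close together without overlap in *Thy1*. *Cd4*, the coreceptor on which the cells were selected, had 7.60 and 7.30 in naive FACS and 7.45 and 8.18 in naive MACS, so that the groups overlapped (-0.36 ± 0.24, adjusted p = 0.718). The largest value in the list was that of *Cd247*, the zeta chain, with 10.37 and 10.04 in naive FACS and 9.60 and 8.24 in naive MACS (1.29 ± 0.40, adjusted p = 0.246). The smallest adjusted p-values were those of the adaptors *Skap1* (0.54 ± 0.12, 0.0789) and *Trat1* (0.68 ± 0.19, 0.169). Further kept probes of *Skap1*, above the ceiling on all 4 naive arrays, differed by 0.18 and -0.12, and that of *Trat1* by 0.98. Replicate 2 of naive MACS was the lowest of the 4 arrays in *Cd247*, whose difference was 0.78 within replicate 1 and 1.8 within replicate 2. Without replicate 1 of naive MACS the difference of *Skap1* was 0.68. A fit with a replicate block that crossed the numbers of the Treg arrays called 5 genes of the list higher. That crossing was chosen after seeing the data, so its count is a description. The block within each cell type, without the crossing, called 1 gene higher among all 15663.

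Of 20 genes of the naive and resting state 0 passed in either direction, and the median difference was 0.12. Set against Treg cells, 16 of the 20 were called higher in naive FACS and 15 in naive MACS (over all genes 11.8% and 12.6%). *Il7r*, the IL-7 receptor chain, had 10.46 and 10.64 in naive FACS, against 10.11 and 9.64 in naive MACS (0.68 ± 0.25, adjusted p = 0.359), and 7.39 to 8.39 in Treg cells. *Ccr7*, which guides cells into lymph nodes, had 8.38 and 8.32 in naive FACS and 8.03 and 8.46 in naive MACS (0.11 ± 0.33). *Pik3ip1*, a brake on PI3K signaling, had 9.04 and 9.24 in naive FACS and 8.67 and 8.53 in naive MACS (0.54 ± 0.18, adjusted p = 0.305). The groups overlapped in *Ccr7* and not in the others. Without replicate 2 of naive MACS 1 gene of the list passed as higher.

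**Figure D2:**
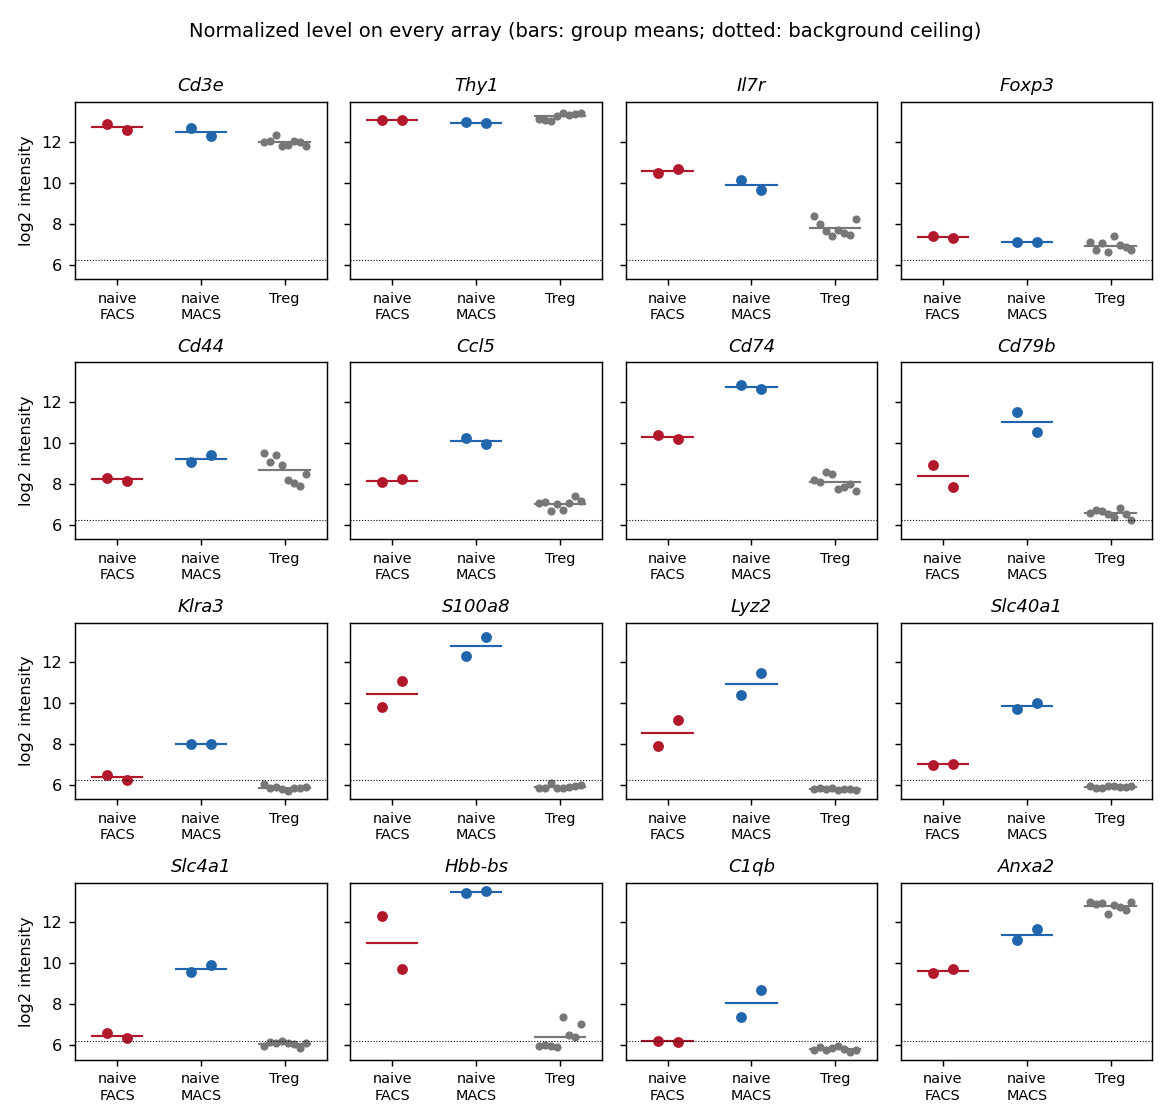
Normalized log2 intensity (y axis) of 16 genes on each array, with the 2 naive FACS arrays (red), the 2 naive MACS arrays (blue) and the 8 Treg arrays (grey). Horizontal bars are group means and the dotted line is the background ceiling. *Cd3e* and *Thy1* differ by 0.25 and 0.12 between the naive groups, whereas *Cd74*, *S100a8*, *Slc40a1* and *Slc4a1* are lower on both naive FACS arrays than on both naive MACS arrays.

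Genes of antigen presentation on MHC class II, which in mice marks B cells, dendritic cells and macrophages rather than T cells, had the largest shift of any list. Of 12 measured, 8 were lower in naive FACS and 0 higher, with a median difference of -1.65. *Cd74*, the invariant chain that escorts class II molecules, had 10.40 and 10.20 in naive FACS, against 12.80 and 12.62 in naive MACS, and 7.64 to 8.55 in Treg cells. It was 5.31-fold lower in naive FACS (-2.41 ± 0.12, adjusted p = 1.7e-05), and both its FACS levels lay above all 8 Treg arrays. The class II beta chain *H2-Eb1* had 8.88 and 8.80 in naive FACS and 11.80 and 11.30 in naive MACS (-2.71 ± 0.18, adjusted p = 9.45e-05). Another beta chain, *H2-Ab1*, had 9.53 and 9.49 in naive FACS and 12.27 and 12.09 in naive MACS (-2.67 ± 0.31). Its naive FACS levels lay within the range of the Treg arrays, 8.94 to 9.84. The alpha chain *H2-Aa* (-1.86 ± 0.31) and the peptide-loading component *H2-DMb2* (-2.12 ± 0.14) were also lower. *Ciita*, the master regulator of class II transcription, chosen after its values were seen, had 6.21 and 6.32 in naive FACS and 7.56 and 7.50 in naive MACS (-1.27 ± 0.09) and was under the ceiling on all Treg arrays. Without replicate 1 of naive FACS the call for *H2-Aa* was lost (-1.60, adjusted p = 0.181), and likewise without replicate 2 (-2.12, 0.0601) and with the deposited normalized values (-1.39, 0.0584).

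Of 18 B cell genes measured, 7 passed as lower and 0 as higher, all 18 values were below 0, and the median was -0.82. *Cd79b*, a signaling chain of the B cell receptor, had 8.91 and 7.83 in naive FACS, against 11.50 and 10.54 in naive MACS, and 6.21 to 6.84 in Treg cells (-2.65 ± 0.37, adjusted p = 0.00595). Both groups had more of it on replicate 1 than on replicate 2, and the difference was -2.59 within replicate 1 and -2.72 within replicate 2. *Ly6d* had 7.40 and 6.95 in naive FACS and 9.92 and 9.08 in naive MACS (-2.32 ± 0.24), *Fcrla* 7.31 and 6.81 against 9.72 and 8.41 (-2.01 ± 0.34), and the kinase *Btk* 6.58 and 6.46 against 8.18 and 8.0 (-1.57 ± 0.12). *Ly6d* and *Fcrla* were under the ceiling on all 8 Treg arrays, and *Btk* was above it on 3. *Vpreb3*, a pre-B cell receptor component, was the weakest of those named (-1.31 ± 0.26, adjusted p = 0.0441). The B cell surface gene *Ms4a1*, which encodes CD20, was under the ceiling on both naive FACS arrays, with 6.01 and 5.97, against 6.69 and 6.27 in naive MACS (adjusted p = 0.175), and the mature B cell factor *Pax5* was under it on all 4. *Mzb1*, an endoplasmic reticulum protein of B and plasma cells, had 8.22 and 8.40 in naive FACS and 10.80 and 10.85 in naive MACS (-2.51 ± 0.19, adjusted p = 0.00017), and was the only 1 of 7 plasma cell genes to pass. The count of B cell genes was 4 without either replicate of naive FACS, 4 with the deposited normalized values and 11 without replicate 2 of naive MACS. *Fcrla* lost its call without replicate 1 (adjusted p = 0.0721) or 2 (0.201) of naive FACS and with the deposited values (0.0658). *Vpreb3* lost it without either of these arrays (0.172 and 0.352) or any 1 Treg array (0.066 to 0.0953), with the deposited values (0.133), median scaling (0.0772), no background correction (0.0982) or no filter (0.0529). *Ms4a1* passed without replicate 2 of naive MACS (-0.70, 0.0348).

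Neutrophil genes gave some of the largest differences in the data. Of 23 measured, 12 were lower in naive FACS and 0 higher. All 23 values were below 0 and the median was -1.25. *S100a8*, a subunit of the calcium-binding protein calprotectin that neutrophils hold in abundance, had 9.82 and 11.10 in naive FACS, against 12.31 and 13.23 in naive MACS (-2.31 ± 0.37, adjusted p = 0.0144). Its partner *S100a9* had 7.48 and 8.67 in naive FACS and 9.97 and 11.78 in naive MACS (-2.81 ± 0.51, adjusted p = 0.0261). Both were under the ceiling on all 8 Treg arrays, replicate 2 exceeded replicate 1 in both purifications, and the FACS and MACS arrays did not overlap. Among granule proteins lactoferrin, *Ltf*, had 7.05 and 7.61 in naive FACS and 9.84 and 10.81 in naive MACS (-2.99 ± 0.30, adjusted p = 0.000729), the antimicrobial peptide *Camp* 6.73 and 7.08 against 9.36 and 10.14 (-2.85 ± 0.23), and *Ngp* 6.37 and 6.69 against 7.89 and 7.99 (-1.42 ± 0.11). The cytokine *Il1b*, which neutrophils and monocytes make, had 6.58 and 6.93 in naive FACS and 8.64 and 9.63 in naive MACS (-2.38 ± 0.25). The granule enzyme genes *Mpo* (myeloperoxidase, -2.01 ± 0.19), *Prtn3* (proteinase 3, -1.09 ± 0.14) and *Elane* (neutrophil elastase, -0.62 ± 0.10), members of the list chosen here after their values were seen, were also lower. The resistin-like *Retnlg*, with 6.27 and 7.11 in naive FACS and 7.94 and 10.40 in naive MACS, did not pass (-2.48 ± 0.60, adjusted p = 0.115), and the replicates of each group lay far apart. The count of the list was 6 without replicate 1 of naive FACS. *S100a8* and *S100a9* lost their call without that array (adjusted p = 0.0672 and 0.219) or without replicate 2 of naive MACS (0.104 and 0.0618), and *S100a9* also without either replicate of TGFhi FACS (0.0628), with the deposited values (0.0772) and with no background correction (0.0549).

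Of 30 monocyte and macrophage genes measured, 12 were lower in naive FACS and 0 higher, 29 were below 0, and the median was -0.74. *Slc40a1*, the iron exporter ferroportin that macrophages use when they recycle red cell iron, had 6.97 and 7.03 in naive FACS, against 9.70 and 9.99 in naive MACS (-2.85 ± 0.10, adjusted p = 3.84e-06). The lysozymes *Lyz1* (9.83 and 10.97 in naive FACS, against 12.28 and 13.44 in naive MACS, -2.46 ± 0.38) and *Lyz2* (7.93 and 9.18, against 10.42 and 11.48, -2.40 ± 0.39) were lower and were, like *Slc40a1*, under the ceiling on all Treg arrays. Their probes may bind both near-identical transcripts, so the assignment to 1 of them is uncertain. *Vcam1*, an adhesion molecule of splenic macrophages and stroma, had 6.26 and 6.33 in naive FACS and 8.28 and 9.05 in naive MACS (-2.37 ± 0.19). *Fcer1g*, the Fc receptor gamma chain shared by myeloid and NK cells, had 7.55 and 8.16 in naive FACS and 10.25 and 11.08 in naive MACS (-2.81 ± 0.28, adjusted p = 0.000667). In 4 further members of the list, chosen after their values were seen, both naive FACS arrays were under the ceiling. These were the complement chain *C1qb*, at least 3.54-fold lower (adjusted p = 0.0169), *C1qc*, at least 2.27-fold lower, the red pulp macrophage factor *Spic*, at least 1.99-fold lower, and the heme oxygenase *Hmox1*, at least 1.75-fold lower. The colony-stimulating factor receptor *Csf1r* and *Adgre1*, which encodes F4/80, did not pass, and *Itgam* (CD11b) was under the ceiling on all 4 naive arrays. The count of the list was 6 without replicate 1 of naive FACS and 19 without replicate 1 of naive MACS. *Lyz1* and *Lyz2* lost their call without replicate 1 of naive FACS (adjusted p = 0.0903 and 0.0837) or replicate 2 of naive MACS (0.0559 and 0.0871).

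Of 10 dendritic cell genes 2 were lower and 0 higher, with a median of -0.56. These were *Tcf4*, the factor of plasmacytoid dendritic cells that B cells also express, with 7.46 and 7.27 in naive FACS and 9.17 and 8.70 in naive MACS (-1.57 ± 0.17, adjusted p = 0.00124), and the chemokine *Ccl5*, which T and NK cells make too. The pre-dendritic cell genes *Irf8* (-0.62 ± 0.18, adjusted p = 0.191) and *Siglech* (-0.50 ± 0.19, 0.409) did not pass. Of 8 genes of mast cells, basophils and eosinophils 1 was lower, the basophil protease *Prss34*, under the ceiling in naive FACS with 6.15 and 6.19 and at 6.67 and 6.81 in naive MACS (at least 1.43-fold, adjusted p = 0.00843). That call was lost without either naive FACS array (adjusted p = 0.0911 and 0.0689) and without replicate 2 of naive MACS (0.0629). The eosinophil protein *Prg2* had 6.41 and 8.10 in naive FACS and 7.22 and 9.24 in naive MACS, more on replicate 2 of each (adjusted p = 0.694).

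Of 12 NK cell genes 6 were lower and 0 higher, all 12 values were below 0, and the median was -1.07. Of those that passed, *Fcer1g* and *Tyrobp* are also members of the monocyte and macrophage list and were counted in both. Among the Ly49 receptors, which inhibit or activate killing, *Klra3* had 6.49 and 6.25 in naive FACS, against 8.02 and 8.02 in naive MACS (-1.65 ± 0.10, adjusted p = 5.58e-05), *Klra7* 6.69 and 6.54 against 8.79 and 8.51 (-2.04 ± 0.29), and *Klra4* 6.51 and 6.37 against 8.22 and 7.71 (-1.52 ± 0.15). Ly49 genes are near-identical copies, and probes may bind several of them. Other kept probes, dimmer and above the ceiling on 1 or 2 naive arrays, differed by -0.58 for *Klra3* and by -0.25 and -0.14 for *Klra7*. *Tyrobp*, the DAP12 adaptor of NK and myeloid cells, had 6.60 and 6.70 in naive FACS and 8.26 and 8.95 in naive MACS (-1.96 ± 0.18). The cytotoxic genes *Prf1* and *Gzmb* did not pass, with *Prf1* at 10.38 and 10.96 in naive FACS and 10.78 and 11.15 in naive MACS and *Gzmb* under the ceiling on all 4, and *Klrd1* had 8.34 and 8.47 against 9.01 and 9.03 (-0.61 ± 0.26, adjusted p = 0.463). Of 7 CD8 T cell genes 0 passed, with a median of -0.13. *Cd8b1*, the CD8 beta chain, had 9.38 and 9.40 in naive FACS and 9.62 and 9.56 in naive MACS (-0.20 ± 0.11, adjusted p = 0.662), a difference of 0.006 with scaling to a common median. Its other 2 kept probes differed by -0.05 and 0.13. The chemokine *Ccl4*, made by killer and activated cells and on none of the lists, was lower, with 7.63 and 7.91 in naive FACS and 10.38 and 10.93 in naive MACS (-2.88 ± 0.22, adjusted p = 0.00017). The chemokines *Ccl3* (-2.02 ± 0.17) and *Xcl1* (-1.32 ± 0.22), both chosen after their values were seen, were lower too. *Klra7* lost its call without replicate 1 (adjusted p = 0.0615) or 2 (0.0804) of naive FACS.

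Red cell transcripts held the largest called difference, that of *Slc4a1*. Of 22 erythroid genes 3 were lower and 0 higher, and the median was -0.28. *Slc4a1*, the red cell anion exchanger band 3, had 6.58 and 6.36 in naive FACS, against 9.59 and 9.90 in naive MACS, and 5.89 to 6.20 in Treg cells, and was 9.70-fold lower in naive FACS (-3.28 ± 0.13, adjusted p = 5.48e-06). *Alas2*, the first enzyme of heme synthesis in erythroid cells, had 6.35 and 5.94 in naive FACS and 7.14 and 7.08 in naive MACS (-0.97 ± 0.13, adjusted p = 0.00498). *Sptb*, a spectrin of the red cell skeleton, was under the ceiling in naive FACS (adjusted p = 0.0279). Other kept probes of *Sptb*, above the ceiling on at most 1 naive array, differed by 0.01, -0.13 and 0.04. The 3 hemoglobin genes measured did not pass. *Hbb-bs* had 12.32 and 9.70 in naive FACS and 13.41 and 13.54 in naive MACS (-2.46 ± 0.66, adjusted p = 0.155), *Hbb-bt* 12.11 and 9.54 against 13.29 and 13.11 (adjusted p = 0.161), and *Hba-a1* 11.98 and 9.49 against 12.94 and 12.51 (-1.99 ± 0.59, adjusted p = 0.216). The naive FACS arrays lay below both naive MACS arrays in all 3, as they did in 19.3% of all genes. Replicate 1 of naive FACS was far nearer to naive MACS than replicate 2 was. Without replicate 1 of naive FACS *Hba-a1* passed (-3.23, adjusted p = 0.000291), and it also passed with the sex pattern as an added term (-1.99, 0.0358). The list held 5 lower genes in either case, and 6 with a variance trend. *Sptb* lost its call without any 1 naive array (adjusted p = 0.0741 to 0.273) or either replicate of TGFhi FACS (0.0628) and with median scaling (0.0628). Of 10 platelet and megakaryocyte genes and 13 genes of stroma and endothelium 0 passed, with medians of -0.13 and -0.002. The platelet glycoprotein *Gp1bb* and the lymphatic gene *Lyve1* were under the ceiling on all naive arrays.

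**Figure D3:**
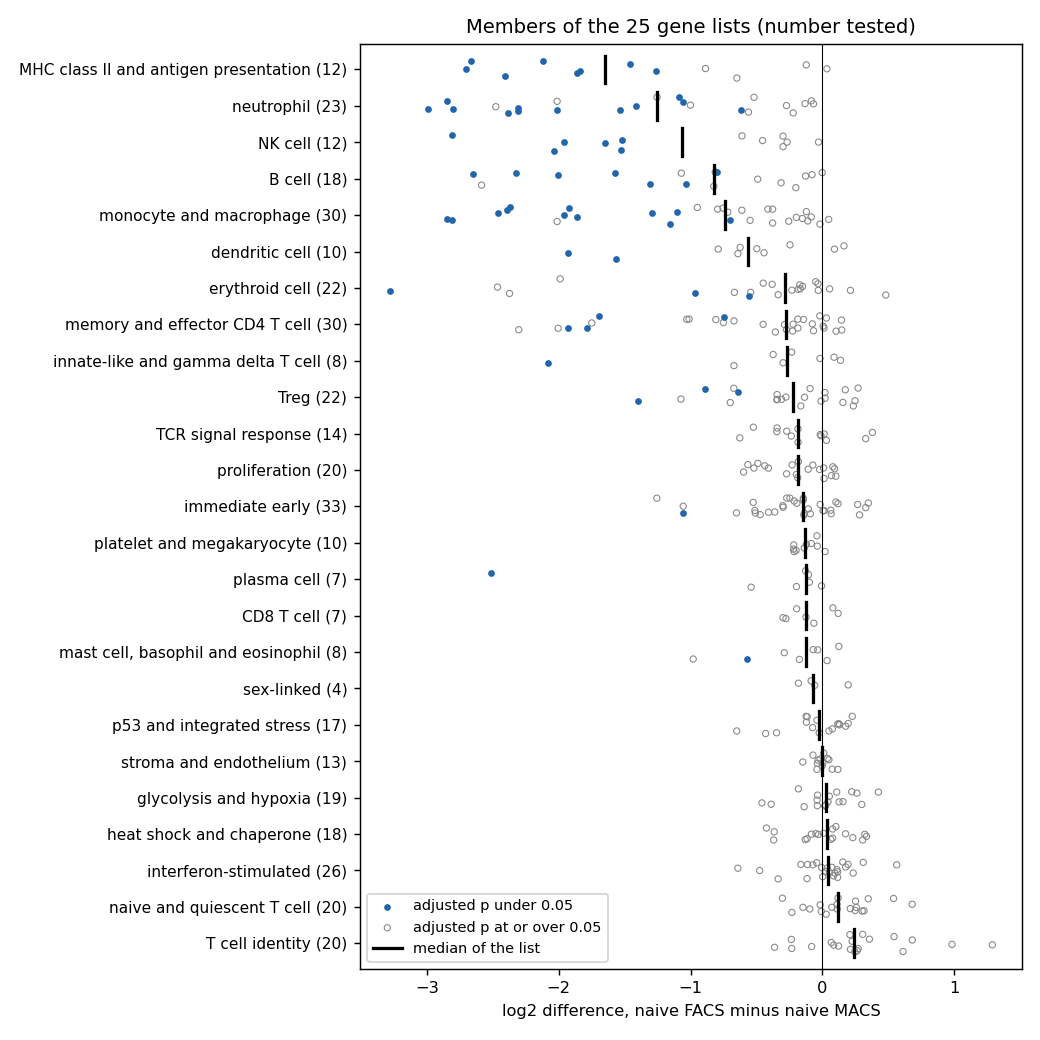
Each row is a gene list, with the number of members tested in brackets and rows sorted by the list's median, and each point is a member placed by its log2 difference, naive FACS minus naive MACS (x axis). Filled blue points passed an adjusted p of 0.05 and black bars are medians, which run from -1.65 for MHC class II genes to 0.24 for T cell identity genes. No point to the right of 0 is filled.

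Over these lists of other cells, 50 of 162 genes measured (30.9%) were called lower in naive FACS, against 0 of the 40 genes on the T cell identity and naive lists and 1.01% of the genes on no list. No test was made between these shares. The lists were chosen with earlier results of these data known. A gene of other cells could also pass the filter through the 2 naive MACS arrays alone, so the shares are a description. In the fit on the 4 naive arrays alone, in which 65 genes passed, the list counts were 8 of 12 for MHC class II genes, 3 for NK cell genes, 2 each for B cell, neutrophil, and monocyte and macrophage genes, 1 each for dendritic and erythroid cell genes and 0 for mast cells, basophils and eosinophils. There 32 of the genes named by rule lost their call. They were the 6 higher genes, *Cd79b* (adjusted p = 0.147), *Ly6d* (0.0788), *Fcrla*, *Vpreb3*, *H2-Aa* (0.26), *Ltf* (0.0611), *S100a8* (0.254), *S100a9* (0.312), *Il1b*, *Lyz1* (0.239), *Lyz2* (0.254), *Fcer1g* (0.0578), *Sirpa*, *Alox5ap*, *Tyrobp* (0.0611), *Klra4* (0.0633), *Tcf4*, *Alas2*, *Sptb*, *Prss34*, *Blk*, *Ahnak*, *Ifng*, *Cd83*, *Klrg1* and *Rgs1*.

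Some genes of memory, effector and regulatory T cells were lower in naive FACS. Of 30 memory and effector genes 4 were lower and 0 higher, with a median of -0.28. *Ccl5*, a chemokine of memory CD8 T and NK cells, had 8.07 and 8.23 in naive FACS, against 10.21 and 9.95 in naive MACS (-1.93 ± 0.15, adjusted p = 0.000226). *Anxa2*, a membrane-binding protein that rises in antigen-experienced T cells and is abundant in myeloid cells, had 9.51 and 9.70 in naive FACS and 11.12 and 11.66 in naive MACS (-1.78 ± 0.22), below the 12.40 to 12.98 of Treg cells. The large scaffold gene *Ahnak* had 8.52 and 8.12 in naive FACS and 9.80 and 10.23 in naive MACS (-1.69 ± 0.27), and *Ifng*, the Th1 and NK cytokine, 6.44 and 6.45 against 7.16 and 7.21 (-0.75 ± 0.11). Further kept probes of *Ahnak*, above the ceiling on all 12 arrays, differed by -1.27 and -0.46. Those above it on 0 naive arrays differed by 0.06 and -0.02. The other kept probe of *Anxa2*, above the ceiling on 2 naive arrays, differed by -0.35, and that of *Ifng* by -0.69. *Cd44*, the surface marker by which memory cells are told from naive cells, had 8.31 and 8.14 in naive FACS and 9.06 and 9.40 in naive MACS, without overlap, and did not pass (-1.01 ± 0.23, adjusted p = 0.0953), except with an offset of 16 (0.0483). Larger differences that did not pass were those of the galectin *Lgals3* (-2.30 ± 0.59, adjusted p = 0.136) and the cytotoxic granule gene *Nkg7* (-2.0 ± 0.59, 0.21). *Il2rb* (-0.23 ± 0.13), the Th1 factor *Tbx21* (-0.36 ± 0.13) and *Pdcd1* (0.03 ± 0.09) did not pass. The count of the list was 2 without either naive FACS array or without replicate 2 of naive MACS. *Ahnak* (adjusted p = 0.0578, 0.154 and 0.113) and *Ifng* (0.0789, 0.072 and 0.0542) lost their calls without replicate 1 of naive FACS, replicate 2 of naive FACS and replicate 2 of naive MACS, in that order.

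Of 22 Treg genes 3 were lower and 0 higher, with a median of -0.22, and the genes that define the lineage were not among them. *Foxp3*, the lineage factor, had 7.42 and 7.28 in naive FACS, against 7.09 and 7.11 in naive MACS (0.25 ± 0.19, adjusted p = 0.777). Its probe gave 6.62 to 7.40 in the sorted Treg cells, so this probe did not set Treg cells apart from naive cells on these arrays. Another kept, dimmer probe was above the ceiling on 0 naive arrays and on 5 arrays in all. A further probe was above it on 2 naive arrays and 5 in all, and the last on 0. *Il2ra*, the high-affinity IL-2 receptor chain, was under the ceiling on all 4 naive arrays and at 9.04 to 10.32 in Treg cells. *Ikzf2*, which encodes Helios, had 6.17 and 6.12 in naive FACS, under the ceiling, and 6.31 and 6.61 in naive MACS (adjusted p = 0.423). Those that passed were *Cd83* (6.44 and 6.20 in naive FACS, against 8.01 and 7.43 in naive MACS, -1.40 ± 0.19), which mature dendritic cells and B cells also carry, *Swap70* (6.35 and 6.36, against 7.18 and 7.30, -0.89 ± 0.13), a signaling protein of B cells, and *Klrg1* (6.24 and 6.06, against 6.84 and 6.74, -0.64 ± 0.10), a receptor of NK and effector cells. Markers of B, NK and myeloid cells were lower on the same arrays, and their part in these values was not tested. Of 8 genes of innate-like and gamma delta T cells 1 was lower, the kinase *Blk*, which B cells also express (6.62 and 6.23 in naive FACS, against 8.86 and 8.16 in naive MACS, -2.08 ± 0.21), and *Zbtb16*, which encodes PLZF, was under the ceiling on all 4 naive arrays. Without replicate 2 of naive FACS 0 Treg genes passed, with adjusted p-values of 0.0712 for *Cd83*, 0.0839 for *Swap70* and 0.145 for *Klrg1*. *Swap70* was also lost without replicate 1 of naive FACS (0.0875) and replicate 2 of naive MACS (0.0702), and without replicate 1 of naive MACS 2 genes of innate-like cells passed.

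Lists of genes that respond to handling, stress and activation held few calls. Of 33 immediate early genes, which are transcribed within minutes of a stimulus such as cell dissociation, 1 was lower and 0 higher, with a median of -0.15. It was *Rgs1*, a regulator of chemokine signaling that B and activated T cells express, with 9.0 and 9.22 in naive FACS, against 9.92 and 10.41 in naive MACS (-1.06 ± 0.17, adjusted p = 0.0151). Larger values with a wider spread were those of the activation gene *Ier3* (-1.26 ± 0.43, adjusted p = 0.322) and the stress factor *Atf3* (-1.06 ± 0.34, 0.278), which did not pass. The AP-1 gene *Fos* differed by -0.11 ± 0.61, and by 0.073 under scaling to a common median. Levels of the list were higher on replicate 2 than on replicate 1 for 25 of 33 genes in naive FACS and 28 of 33 in naive MACS. Over all 15663 genes 7741 and 7984 were. Of 18 heat shock and chaperone genes 0 passed (median 0.04), with *Hspa1a* at -0.43 ± 0.31, of 26 interferon-stimulated genes 0 (0.04), with *Rsad2* at -0.48 ± 0.17 and *Ifit2* at 0.56 ± 0.20, and of 17 p53 and integrated stress genes 0 (-0.03), with *Mdm2* at -0.65 ± 0.14 (adjusted p = 0.0771). Likewise 0 of 4 sex-linked genes, 0 of 19 glycolysis and hypoxia genes, 0 of 14 genes of T cell receptor signaling and 0 of 20 proliferation genes passed. The smallest adjusted p-values of the proliferation list were those of the anaphase activator *Cdc20* (-0.57 ± 0.12, adjusted p = 0.0633) and the replicative helicase subunit *Mcm5* (-0.49 ± 0.12, 0.129). Further kept probes of *Cdc20*, above the ceiling on all 12 arrays, differed by -0.19 and -0.09. Another, above it on 0 naive arrays, differed by 0.16. Without replicate 1 of naive MACS 1 proliferation gene was also lower. Without replicate 1 of naive FACS, replicate 2 of naive FACS or replicate 2 of naive MACS *Rgs1* did not pass (-0.948, -1.171 and -0.816). Without replicate 1 of naive MACS *Mdm2* differed by -0.841 and *Ifit2* by 0.89. The fit with crossed Treg numbers, chosen after seeing the data, called 4 immediate early genes lower. *Cdc20* passed without either replicate of TGFhi MACS (0.0181).

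Outside the lists 154 genes were lower in naive FACS. Those with the largest differences, beside *Ccl4*, were the aspartic protease *Napsa* with 7.57 and 7.73 in naive FACS and 10.48 and 10.29 in naive MACS (-2.73 ± 0.12, adjusted p = 7.03e-06), the leukotriene synthesis protein *Alox5ap* with 7.51 and 8.01 against 9.73 and 11.12 (-2.67 ± 0.38), and the myeloid inhibitory receptor *Sirpa* with 6.34 and 6.89 against 8.54 and 9.77 (-2.54 ± 0.32). Further genes, chosen after their values were seen, included the lysosomal protease *Ctsh* (-2.38 ± 0.11), the endosomal Toll-like receptor chaperone *Unc93b1* (-2.29 ± 0.20), the costimulatory receptor *Cd40* of B and myeloid cells (-1.61 ± 0.14) and the lipid carrier *Apoe* (-1.37 ± 0.09). A smaller set was at high levels in Treg cells. The cytokinesis gene *Prc1* had 7.25 and 7.08 in naive FACS, against 7.91 and 7.75 in naive MACS (-0.67 ± 0.11, adjusted p = 0.0179), and 10.58 to 11.14 in Treg cells. Progranulin, *Grn*, had 7.52 and 7.61 in naive FACS and 9.08 and 9.30 in naive MACS (-1.62 ± 0.14), and 9.21 to 9.78 in Treg cells. The interferon-inducible membrane protein *Ifitm3* had 7.58 and 8.32 in naive FACS and 9.97 and 10.84 in naive MACS (-2.45 ± 0.45, adjusted p = 0.0301), with Treg arrays between 8.34 and 10.99. Without replicate 1 of naive FACS *Alox5ap* and *Sirpa* did not pass (adjusted p = 0.0952 and 0.0533).

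Of the 6 genes called higher in naive FACS, *Gramd3*, which encodes a lipid-binding protein of membrane contact sites, differed most. It had 7.75 and 7.79 in naive FACS, against 7.20 and 6.87 in naive MACS, and 6.0 to 6.41 in Treg cells (0.73 ± 0.13, adjusted p = 0.0222). The others were the zinc finger gene *Zfp955a* (0.61 ± 0.11), *Nop9*, which acts in ribosome assembly (0.58 ± 0.10), the mitochondrial ribosomal gene *Mrpl24* (0.51 ± 0.09), the GTPase *Arfrp1* of the trans-Golgi (0.50 ± 0.10) and the phosphatase family gene *Hdhd2* (0.47 ± 0.09). None kept its call without each naive array in turn, with adjusted p-values of up to 0.202 for *Gramd3*, 0.21 for *Zfp955a*, 0.196 for *Nop9*, 0.234 for *Mrpl24*, 0.234 for *Arfrp1* and 0.345 for *Hdhd2*. With a replicate block within each cell type 5 of the 6 lost their call, *Gramd3* (0.0861), *Zfp955a* (0.0704), *Mrpl24* (0.0863), *Arfrp1* (0.157) and *Hdhd2* (0.192). *Gramd3*, *Zfp955a*, *Arfrp1* and *Hdhd2* also lost it without certain Treg arrays (adjusted p of up to 0.072). The other kept probe of *Gramd3*, under the ceiling on all arrays, differed by -0.08. Other probes of *Arfrp1* differed by -0.07 and 0.12, and those of *Hdhd2* by 0.23 and 0.19.

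Within replicate numbers, which compare arrays of like *Xist* and *Eif2s3y* pattern, all 212 lower genes had a FACS level under the MACS level in both, as did 4387 of all 15663 genes. In all 212 both naive FACS arrays lay below both naive MACS arrays. That alone fixes the outcome for these genes, so it is no separate check. Their differences ranged from -3.01 to -0.36 within replicate 1 (median -1.04) and from -3.55 to -0.38 within replicate 2 (median -1.22). Medians of the lists were not the same in both. Neutrophil genes had a median of -1.07 within replicate 1 and -1.54 within replicate 2, and monocyte and macrophage genes -0.54 and -1.0, whereas B cell genes had -1.16 and -0.60. Levels also differed between the replicates. Of 30 monocyte and macrophage genes 22 were higher on replicate 2 than on replicate 1 of naive FACS and 29 in naive MACS. Of 23 neutrophil genes 18 and 20 were, and of all 15663 genes 7741 and 7984. Of 18 B cell genes 5 were higher on replicate 2 of naive FACS and 2 in naive MACS. MHC class II genes had -1.56 within replicate 1 and -1.65 within replicate 2. The numbers hold 1 array per purification each, so the difference between them was not tested.

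**Figure D4:**
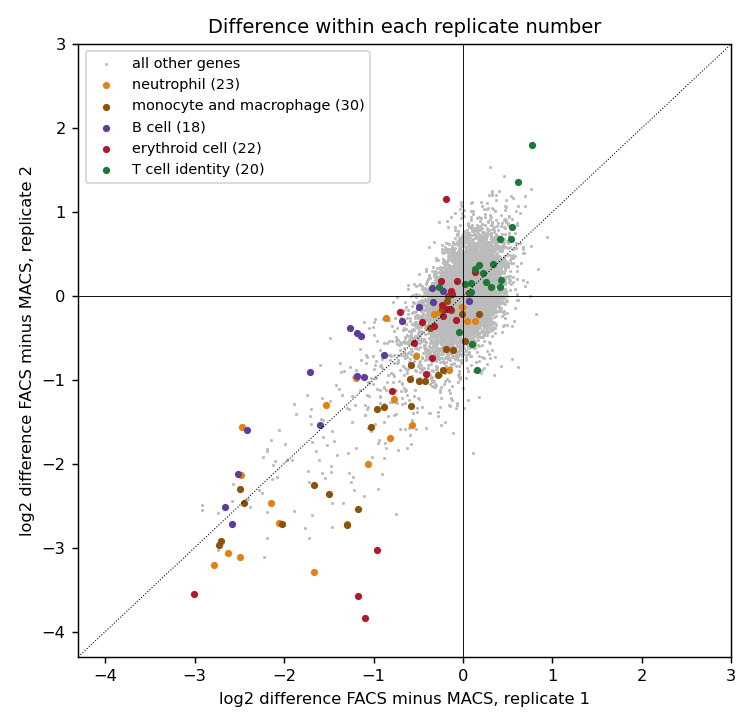
Each point is a gene, with its log2 difference, FACS minus MACS, within replicate 1 on the x axis and within replicate 2 on the y axis, and the dotted line marks equal differences. Neutrophil and monocyte genes tend to fall below the line, with medians of -1.54 and -1.0 within replicate 2 and of -1.07 and -0.54 within replicate 1, and B cell genes above it with -0.60, against -1.16 within replicate 1.

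Between Treg cells of FACS precursors and those of MACS precursors 0 genes passed in limma (207 genes, 1.32%, at an unadjusted p under 0.05), and likewise 0 within TGFhi cells (388 unadjusted, 2.48%) and 0 within Harmine cells (581 unadjusted, 3.71%). For the 212 genes that were lower in naive FACS the Treg difference had a median of 0 and a range of -0.27 to 0.41. *Cd74*, for instance, differed by -2.41 between the naive groups and by -0.19 ± 0.09 between the Treg groups, and *S100a8* by -2.31 and -0.11 ± 0.26. The test of the difference between the naive and the Treg contrast called 136 genes (0.868%), 135 of them (0.862%) more negative in the naive contrast and 1 (0.00638%) more positive. All 135 were among the 212, which share the naive arrays with this test. They included 8 neutrophil, 7 monocyte and macrophage, 6 NK, 6 MHC class II and 4 B cell genes, and 0 T cell identity genes. *Fcer1g* and *Tyrobp* are included in both the monocyte and macrophage and the NK number. Without a naive FACS array the count was 66 (replicate 1) or 69 (replicate 2), without replicate 1 of naive MACS 283, without a TGFhi FACS array 85 (replicate 1) or 83 (replicate 2), and without replicate 2 of Harmine FACS 88. All Treg arrays came from GFP+ cells sorted after culture, so culture and the sort cannot be told apart in this comparison.

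**Figure D5:**
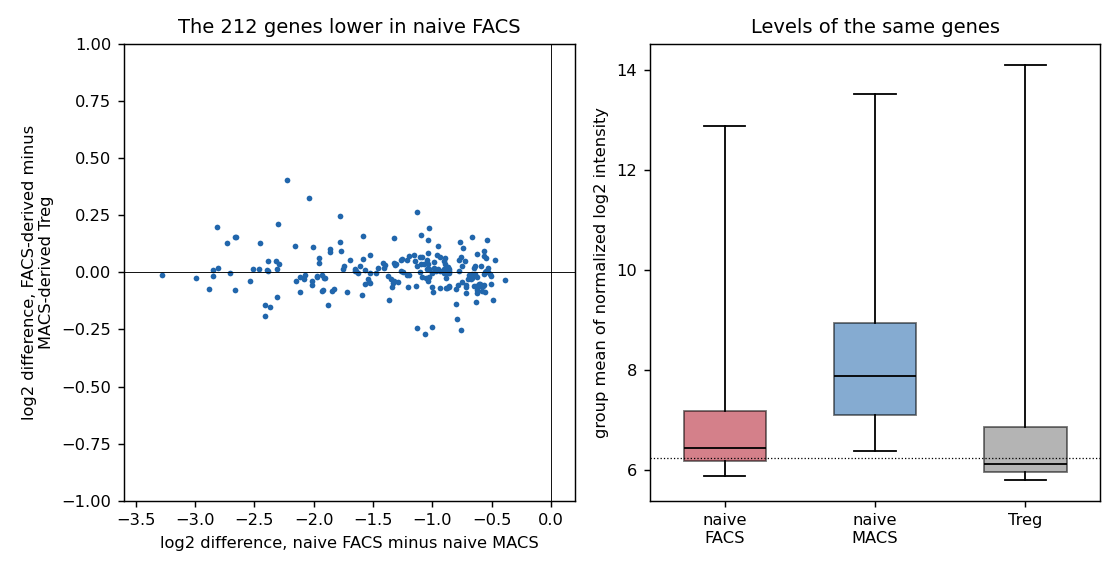
Left, the 212 genes lower in naive FACS, with the naive FACS minus naive MACS difference on the x axis and the FACS-derived minus MACS-derived Treg difference on the y axis, which stays between -0.27 and 0.41. Right, group mean levels of the same genes in naive FACS, naive MACS and Treg arrays, with medians of 6.44, 7.87 and 6.12 (box: quartiles, whiskers: range, dotted line: background ceiling).

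Some genes of other cells were higher in naive FACS than in Treg cells. Of 23 neutrophil genes 10 were higher in naive FACS than in Treg cells and 19 in naive MACS, of 30 monocyte and macrophage genes 7 and 21, of 18 B cell genes 7 and 14, of 12 NK cell genes 6 and 11, of 12 MHC class II genes 5 and 11, and of 22 erythroid genes 5 and 11 (over all genes 11.8% and 12.6%). In naive FACS the count was 1 for each of the dendritic, plasma cell, platelet and stroma lists and 0 of 8 for mast cells, basophils and eosinophils. The mean log2 level of the neutrophil list was 6.59 and 6.95 on the naive FACS arrays, 7.80 and 8.52 on the naive MACS arrays and 6.04 to 6.11 on the Treg arrays. That of the B cell list was 6.84 and 6.63 in naive FACS, 8.07 and 7.51 in naive MACS and 6.17 to 6.31 in Treg cells. That of the T cell identity list was 10.14 and 10.14 in naive FACS, 9.88 and 9.85 in naive MACS and 9.37 to 9.66 in Treg cells. For the neutrophil and B cell lists both naive FACS arrays lay between the Treg and the naive MACS arrays, and for T cell identity genes above both.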

How the data were processed

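RNA of 12 samples was hybridized to Illumina Mouse WG-6 v2 arrays, 1 per sample. Signals were read with GenomeStudio, and the authors deposited these intensities without further normalization. Their mean was 256.6 on every array, so they had been scaled between arrays, and raw medians were 102.3 and 104.5 in naive FACS and 113.3 and 117.2 in naive MACS. The authors also deposited log2 values made with lumi (background correction, variance stabilization, robust spline normalization), used here as an alternative. Their columns correlated with those of the same array at 0.894 to 0.997 and with others at 0.855 at most.

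Intensities were corrected with normexp (saddle-point estimate, offset 50), quantile normalized and taken to log2 in limma 3.58.1 (R 4.3.3). Probes above the array median on at least 2 arrays were kept (32081 of 45281). Of all probes 34885 had 1 gene, 18 several and 10378 none in the platform annotation. The latter kinds were left out, 0 symbols changed through Entrez identifiers in the RefSeq table and 78 probes did not match there. The kept probe with the highest mean stood for a gene, which gave 15663 genes. The background ceiling was the density peak of an array plus 3 SDs of the values below it. Where a group lay under it on all arrays, a fold is written as "at least", with those arrays set to the ceiling. A linear model with 6 group means was fitted to 12 arrays (residual degrees of freedom 6, prior 3.43), two-sided, with Benjamini-Hochberg adjustment and a threshold of 0.05. The script was checked on simulated data. The number of arrays limits the precision.

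The groups compared, the 25 gene lists and the rule for named genes were chosen with earlier results of these data known. The rule took the 15 largest changes in each direction without overlap of arrays, up to 5 called members of each list or else the 2 with the smallest p, a set of standard markers, and the 5 largest in each direction of the Treg and interaction contrasts. Other genes were named after their values were seen, also where the text does not repeat it: *Thy1*, *Cd247*, *Pax5*, *Retnlg*, *Csf1r*, *Adgre1*, *Itgam*, *Irf8*, *Siglech*, *Prg2*, *Prf1*, *Gzmb*, *Klrd1*, *Hbb-bs*, *Hbb-bt*, *Tbx21*, *Pdcd1*, *Lgals3*, *Nkg7*, *Zbtb16*, *Ier3*, *Atf3*, *Prc1*, *Grn* and *Ifitm3*. Alternatives were median scaling, other filters and background settings, the deposited table, a replicate block, the sex pattern, a variance trend, all probes, the naive arrays alone, the methods' t-test and leaving out each array.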

Additional observations from a re-analysis of the deposited data

Results flagged for a closer look

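A difference between cell types flagged 136 genes, whose FACS minus MACS difference was not the same in naive and in Treg arrays by the interaction term of the limma model. The largest were *Slc4a1* (-3.27 on the log2 scale, naive contrast minus Treg contrast), *Fcer1g* (-3.01), *Ltf* (-2.97), *Napsa* (-2.86) and *Slc40a1* (-2.86). The 1 gene in the other direction was *Nudt6* (0.60), with 8.72 and 8.62 in naive FACS, against 8.37 and 8.18 in naive MACS, and a Treg difference of -0.20. Its own naive difference did not pass (0.40 ± 0.09 SE, adjusted p = 0.0818), except with scaling to a common median (0.0397), no background correction (0.0486), the deposited values (0.0442), the sex pattern as a term (0.0468) or without replicate 1 of naive MACS (0.0312). Groups of 2 arrays are too small for a single array to be flagged.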

How the results depend on the processing

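Naive FACS minus naive MACS gave 218 genes. The count was within 1.5 times of this under scaling to a common median (191), the filters (214 and 226), the background settings (200 and 256), the deposited values (180), the number as 1 replicate block (210), the sex pattern (283), a variance trend (272) and all probes (259), where 169 to 215 of the calls were shared. It was 141 with a replicate block within each cell type (140 lower, 134 shared), where besides 5 of the 6 higher genes *Ahnak* (adjusted p = 0.0698), *Klrg1* (0.0835), *Swap70* (0.0774), *Prss34* (0.0604), *Sptb* (0.109) and *Vpreb3* (0.0536) did not pass, 65 with the 4 naive arrays, and 2 by the methods' t-test after Benjamini-Hochberg, both higher and 0 shared, or 1067 at an unadjusted p of at most 0.05 (607 lower). Without 1 array it ranged from 100 to 567. FACS-derived minus MACS-derived Treg cells gave 0 genes in limma in every alternative run (at an unadjusted p under 0.05, 207 genes, and 56 to 668 over the alternatives, with 268 and 172 under the replicate blocks), also with the numbers of TGFhi and Harmine arrays crossed (416 unadjusted, chosen after seeing the data), a fit that called 5 T cell identity genes higher and 4 immediate early genes lower between the naive groups. The interaction gave 136, 78 with the block within each cell type and 66 to 283 without 1 array. Naive FACS minus Treg gave 3685 and naive MACS minus Treg 3934, and 2191 and 2168 with that block, and without 1 array 2268 to 3846 and 2750 to 3943. With median scaling the last was 2546 lower and 1331 higher, against 1963 and 1971. Same-numbered arrays deviated together in naive cells (r = 0.423) and not in TGFhi (-0.106) or Harmine cells (-0.622), so the number does not mark pairs throughout. With the number as 1 block *Cdc20* passed (0.0486).

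Of the named genes, none that passed changed sign in any alternative run. Signs turned under median scaling for *Cd8b1* (0.006), *Fos* (0.073) and *Eif2s3y* (0.053). Without 1 array the difference ranged from -0.727 to 0.001 for *Cd4*, -0.105 to 0.324 for *Ccr7*, -0.091 to 0.07 for *Il2ra*, -0.537 to 0.322 for *Fos*, -0.901 to 0.05 for *Hspa1a*, -1.498 to 1.134 for *Xist*, -1.113 to 0.995 for *Eif2s3y*, -0.026 to 0.416 for *Kdm5d* and -0.198 to 0.026 for *Uty*. The cause of these changes was not tested. No slide or scan was given in the sources used here, so a slide block was not run.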
